A study of Mus musculus with 11 samples.

Results

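The proteasome genes described here are those whose symbol on the array is Psma, Psmb, Psmc, Psmd, Psme, Psmf or Psmg followed by digits, without the interferon-inducible catalytic subunits Psmb8, Psmb9 and Psmb10. The rule found 44 genes on 72 probes, of 17711 named genes and 46627 probes in all. Of these, 40 genes passed the detection filter and were tested, each through its brightest probe. Psma6, Psmb11, Psmc6 and Psmg4 were on the array but did not pass, and the assembly chaperone gene Psmg2 had no listed probe. Their expression was measured on Illumina BeadChips in mouse induced pluripotent stem cells (iPSC) grown on feeder cells (3 arrays), in iPSC grown without feeder cells (3 arrays) and in the feeder cells alone (2 arrays). All groups carry the strain label C57BL/6. The feeder cells are labelled MSTO and described as embryonic fibroblasts that express the cytokine LIF, while the layer under the iPSC is given as SNL76/7 cells treated with mitomycin C, and how the 2 names relate is not stated. Feeder-free iPSC received 1000 units per ml of LIF in medium with 15% serum, whereas those on feeder cells were parted from the layer mechanically before RNA was taken. Another group of 3 arrays exists only in silico, as 92% feeder-free signal plus 8% feeder signal, and stands for iPSC that carry along some feeder RNA. The labels do not say whether replicates are separate cultures or how many iPSC lines were used, so p-values measure the spread between these arrays, which may be technical.

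The proteasome degrades proteins tagged with ubiquitin. Its barrel-shaped core particle stacks rings of alpha subunits, which gate the entry, around rings of beta subunits, of which Psmb5, Psmb6 and Psmb7 carry the catalytic sites. A regulatory particle of ATPase (Psmc) and non-ATPase (Psmd) subunits recognises, unfolds and feeds in the substrates, dedicated chaperones assemble both particles, and other activators (Psme) or the inhibitor Psmf1 can bind the core in its place. Subunit genes are active in every cell, and in mammals the transcription factor Nfe2l1 raises many of them together when proteasome capacity falls short. Pluripotent stem cells are known for high proteasome activity.

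Signals were background-corrected, put on the log2 scale and quantile normalized between arrays, so a level below is a log2 intensity and a difference of 1 is a 2-fold change. The iPSC arrays detected 17307 to 19043 probes and the feeder arrays 13581 to 14574. Of the pluripotency markers, 7 of 8 were tested and all 7 were higher in feeder-free iPSC against feeder cells, and all 7 tested fibroblast markers, of 11 listed, were lower. The median over the 40 proteasome genes was 11.22, 11.29 and 11.32 on the on-feeder arrays, 11.45, 11.46 and 11.47 on the feeder-free arrays, and 11.26 and 11.33 on the feeder arrays. The feeder-free arrays had the highest medians, and all 8 arrays lay between 11.22 and 11.47. A median of levels follows the genes ranked near it. Over single genes the median difference, on feeder cells minus feeder-free, was 0.07, in the other direction.

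Growth on feeder cells was compared with feeder-free growth. Of the 40 proteasome genes, 5 passed the test at an adjusted p under 0.05, which is 12.5% against a background of 18.5% of all 10058 genes tested. Higher on feeder cells were the catalytic subunit Psmb6, the alpha-ring subunit Psma3 and the inhibitor Psmf1 (3 genes, against 10% of all genes higher), and lower were the activators Psme3 and Psme4 (2 genes, against 8.46% of all genes lower). Only Psmb6 passed with a change of at least 2-fold (1 of 40, against 1.89% of all genes). The median difference over the 40 genes was 0.07, against -0.02 over all genes. For 39 of the 40 genes the 95% confidence interval of the difference lay within 2-fold in either direction, the exception being Psmb6, and for 32 it lay within 1.5-fold.

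**Figure D1:**
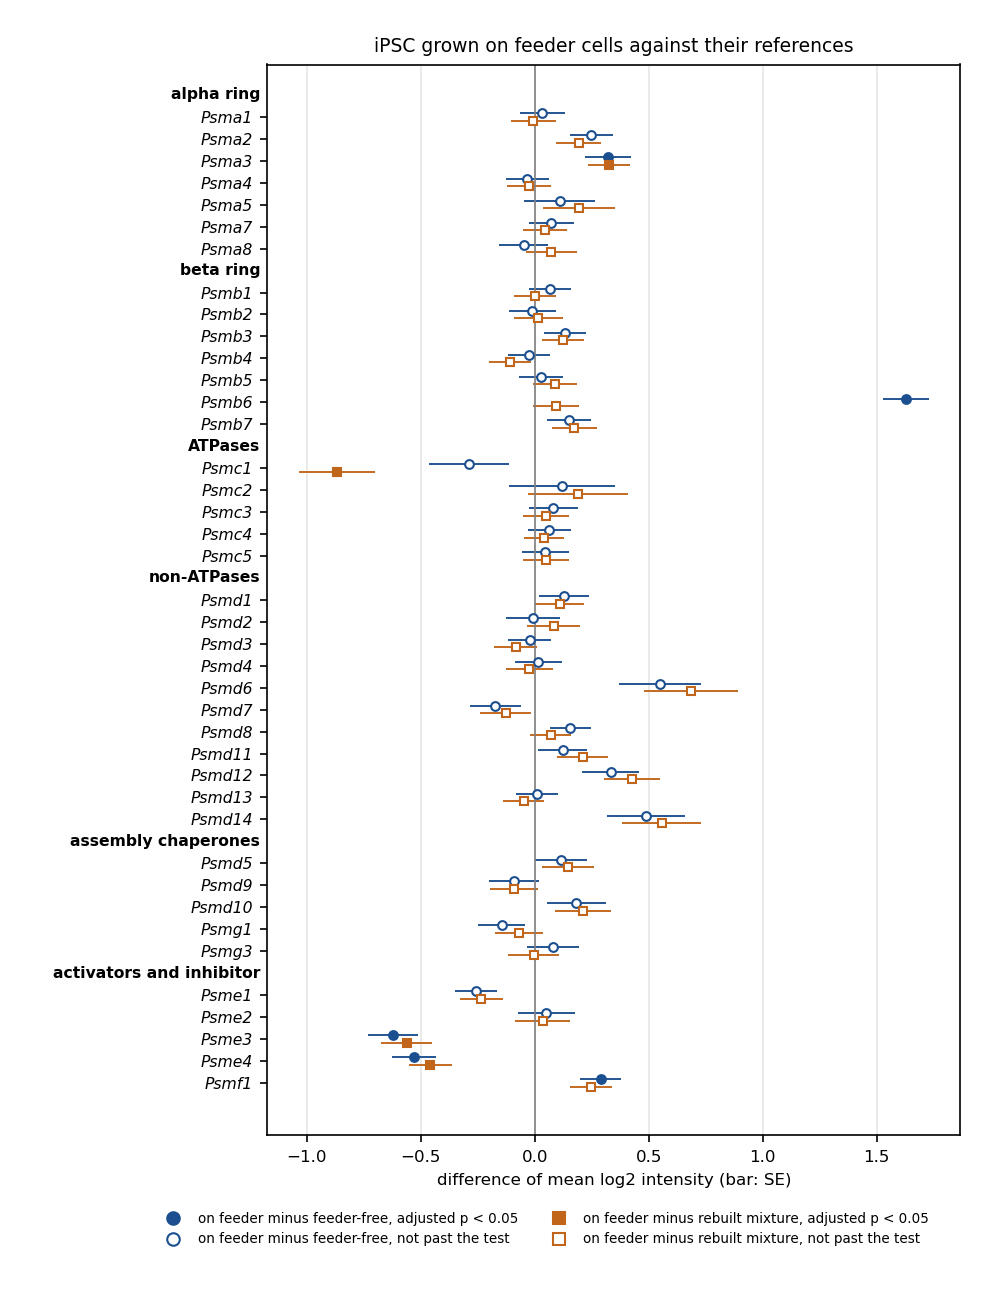
Difference of mean log2 intensity of each tested proteasome gene, by role, in iPSC on feeder cells minus feeder-free iPSC (circles) and minus the rebuilt in silico mixture (squares). Bars are standard errors, 3 arrays per group, and filled symbols passed an adjusted p of 0.05. Psmb6 stands at 1.63 against feeder-free iPSC and at 0.09 against the mixture, while Psme3 and Psme4 lie below 0 against both.

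Among the catalytic subunits, Psmb6, the caspase-like site, stood apart from Psmb5, the chymotrypsin-like site, and Psmb7, the trypsin-like site. Psmb6 read 10.08, 10.09 and 9.99 in iPSC on feeder cells, 8.57, 8.35 and 8.35 in feeder-free iPSC, and 13.07 and 12.9995 in feeder cells. The groups did not overlap, and the on-feeder arrays lay between the other groups. The difference on feeder cells against feeder-free growth was 1.63 (SE 0.10, a 3.09-fold rise, adjusted p = 2.85e-07), the widest among the 40 genes. It held under all 14 alternative settings, at 1.45 to 1.71. Psmb5 read 11.34, 11.37 and 11.37 on feeder cells, against 11.45, 11.30 and 11.24 without them. These ranges overlap, and the difference was 0.03 with a 95% interval of -0.18 to 0.23. Psmb7 read 13.10, 13.13 and 13.09 on feeder cells, against 12.90, 13.09 and 12.87 without them, a difference of 0.15 with an interval of -0.06 to 0.36 (adjusted p = 0.303).

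The feeder arrays put numbers beside the Psmb6 difference. The deposited, non-normalized Psmb6 signals were 1161, 876.3 and 1404.1 on the on-feeder arrays, 546, 395 and 344 on the feeder-free arrays recovered from the mixtures, and 8568 and 8310 on the feeder arrays. The authors' in silico mixtures hold 1178, 1039 and 992. On the normalized linear scale the on-feeder arrays lay 9.20, 9.24 and 8.34% of the way from the feeder-free to the feeder level, a mean of 8.92% ± 0.51 (SD, n = 3). For the ATPase gene Psmc1, also higher in feeder cells, this share was -2.02, -3.03 and -3.48%, with on-feeder signals at background. The same quantity ranged over 7 fibroblast markers between 4.39% for Lox and 74.7% for Dcn, with a median of 7.66%. The summed intensity of these 7 markers was 11264 to 11903 in iPSC on feeder cells, 5033 to 5211 in feeder-free iPSC and 34972 to 37650 in feeder cells, and 6 of the 7 rose on feeder cells against feeder-free growth. In iPSC this sum is carried mostly by Vim, with means of 13.18 on feeder cells and 12.10 without them. Its own share was 32.9%, so the sum gives no estimate of feeder content. Summed pluripotency markers were 13676 to 15528 in iPSC on feeder cells, against 16026 to 17010 in feeder-free iPSC, without overlap, and 1 of the 7, Utf1, was lower on feeder cells (-0.51). The sum is carried mostly by the brightest genes, Pou5f1 and Esrrb. Pou5f1 (-0.17), Sox2 (-0.33) and Esrrb (-0.34) lay below 0 and Nanog (0.20), Tdgf1 (0.23) and Zfp42 (0.04) above it, none of them called. Summed endothelial markers were 735 to 876 on feeder cells, against 839 to 983 without them. In iPSC this sum is carried mostly by Pecam1, detected on all 3 feeder-free arrays and on 0 of 2 feeder arrays. It was not taken as a count of endothelial cells. Of the 3 endothelial markers tested, Cdh5 was lower on feeder cells (-1.16), while Pecam1 (-0.11) and Kdr (-0.08) did not pass. The part of feeder or other cells in the Psmb6 difference was not tested. The mixture comparison below does not settle it, because its result follows the share of feeder signal assumed. In RNA from whole cultures, fewer cells of a type and less RNA per cell cannot be told apart.

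**Figure D2:**
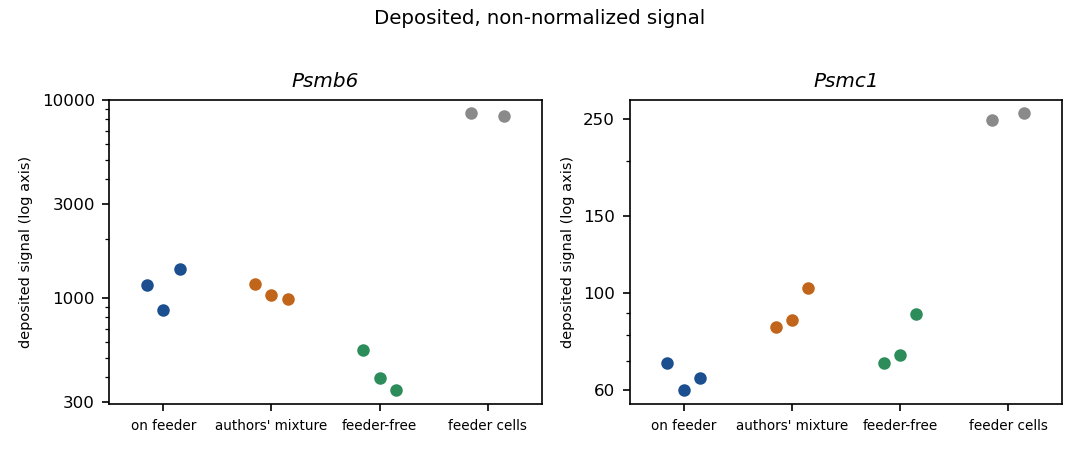
Deposited, non-normalized signal of Psmb6 (left) and of the ATPase gene Psmc1 (right) on each array, on log axes, with 1 point per array. For Psmb6 the on-feeder arrays (876.3 to 1404.1) surround the mixtures (992 to 1178), while for Psmc1 the on-feeder arrays (60 to 69.3, none above background) lie under all 3 mixtures (83.8 to 103). Psmc1 passed the detection filter only through the feeder arrays, whose signal is part of the mixtures, so its panel is descriptive.

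Psmb6 and Psmb5 carry their sites in the same beta ring but differed in opposite directions between iPSC and feeder cells, so their promoters are shown. Each stretch runs from 150 bases before to 10 bases after the RefSeq transcript start in build GRCm38.p6, at chr11:70525207-70525366 on the plus strand for Psmb6 and chr14:54617986-54618145 on the minus strand for Psmb5. Capitals mark TGACNNNGC, the core of the antioxidant response element bound by Nfe2l1 and Nfe2l2 with small Maf proteins.
Psmb6: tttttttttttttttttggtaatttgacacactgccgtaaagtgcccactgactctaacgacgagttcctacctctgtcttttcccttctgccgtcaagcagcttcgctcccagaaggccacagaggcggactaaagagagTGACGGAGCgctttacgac
Psmb5: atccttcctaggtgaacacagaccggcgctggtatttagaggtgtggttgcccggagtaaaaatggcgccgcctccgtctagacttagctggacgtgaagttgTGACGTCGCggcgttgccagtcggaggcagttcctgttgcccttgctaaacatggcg
The match begins 9 bases before the start in Psmb6 and 47 bases before it in Psmb5. Over windows from 250 bases before to 50 after the start, read on both strands, TGACNNNGC occurred in 6 of the 37 proteasome genes that have such a window (Psmb5, Psmb6, Psmc6, Psmd9, Psmd12 and Psme4), which is 16.2% against 14% of 27025 genes. CCAAT, the box bound by nuclear factor Y, occurred in 13 of 37 (35.1%, against 41.1% of all genes). No proteasome gene held both motifs, and neither share lies far from its background.

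In the rest of the core particle only Psma3 passed the test with the feeder layer. Psma3, an alpha subunit, read 12.61, 12.69 and 12.71 on feeder cells, against 12.40, 12.31 and 12.34 without them. The groups did not overlap and the difference was 0.32 (SE 0.10, adjusted p = 0.0457). This call sat at the edge of the threshold and was lost under 9 of 14 alternatives, among them the removal of any single on-feeder or feeder-free array, with adjusted p values of 0.0119 to 0.575 over all 14. The other 6 tested alpha genes lay between -0.05 for Psma8 and 0.25 for Psma2, with Psma4 at -0.03, and Psmb1 to Psmb4 between -0.03 and 0.13.

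No gene of the regulatory particle or of the assembly chaperones passed the test on feeder cells against feeder-free growth with limma. At an unadjusted p under 0.05 there were 0 of 5 ATPases, 3 of 11 non-ATPases and 0 of 5 chaperones, against 32.9% of all genes. The 3 were Psmd6 at 0.55 (adjusted p = 0.0518), Psmd14, the deubiquitinase of the lid, at 0.49 (0.0672) and Psmd12, a lid scaffold subunit, at 0.33 (0.0834). Psmd6 lay near background, was detected on 2 of 3 feeder-free arrays, and gave 0.16 (adjusted p = 0.352) through its second probe. Psmd14 read 8.34, 8.21 and 8.72 on feeder cells, against 8.33, 7.75 and 7.73 without them, and 1 feeder-free array lay inside the on-feeder range. Psmd7, a lid subunit that pairs with Psmd14, lay at -0.17 through its brightest probe, while another of its probes was lower on feeder cells at -0.41 (adjusted p = 0.0322) and the remaining probe lay at 0.16. Of the second probes of tested genes, that probe was the only one to differ in call in this contrast.

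Of the 5 activator and inhibitor genes tested, 3 were called (60%, against 18.5% of all genes), a share that rests on few genes. Psme3, a nuclear activator that works without ubiquitin, read 10.97, 10.98 and 10.68 on feeder cells, against 11.43, 11.46 and 11.60 without them. All on-feeder arrays lay under all feeder-free arrays, and the difference was -0.62 (SE 0.11, adjusted p = 0.00216), a level 1.54-fold lower on feeder cells. Psme4, a large nuclear activator linked to histone degradation, read 10.36, 10.25 and 10.21 on feeder cells, against 10.82, 10.82 and 10.77 without them. Its groups were also apart, at -0.53 (SE 0.10, adjusted p = 0.00252), and its second probe gave -0.65 (adjusted p = 0.0106). Psmf1, which inhibits the core particle in vitro, read 10.37, 10.27 and 10.34 on feeder cells, against 10.03, 10.03 and 10.05 without them, a rise of 0.29 (SE 0.09, adjusted p = 0.0426). The Psmf1 call was lost under 9 of 14 alternatives, among them the removal of each on-feeder or feeder-free array in turn other than on-feeder array 2, with adjusted p values of 0.0093 to 0.613 over all 14. The calls of Psme3 and Psme4 were lost under 1 of 14, median scaling, at adjusted p = 0.0934 for Psme3 and 0.27 for Psme4.

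The remaining activators, Psme1 and Psme2, form a joint interferon-inducible ring. Psme1 lay at -0.26 (adjusted p = 0.0739), with 11.09, 11.20 and 11.15 on feeder cells and 11.44, 11.45 and 11.32 without them. Psme2 lay at 0.05, and its groups overlapped. Among the inducible catalytic subunits outside the rule, Psmb8 was lower on feeder cells at -0.56 (SE 0.10, adjusted p = 0.00293), Psmb10 lay at -0.29 (adjusted p = 0.079), and Psmb9 was not tested.

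**Figure D3:**
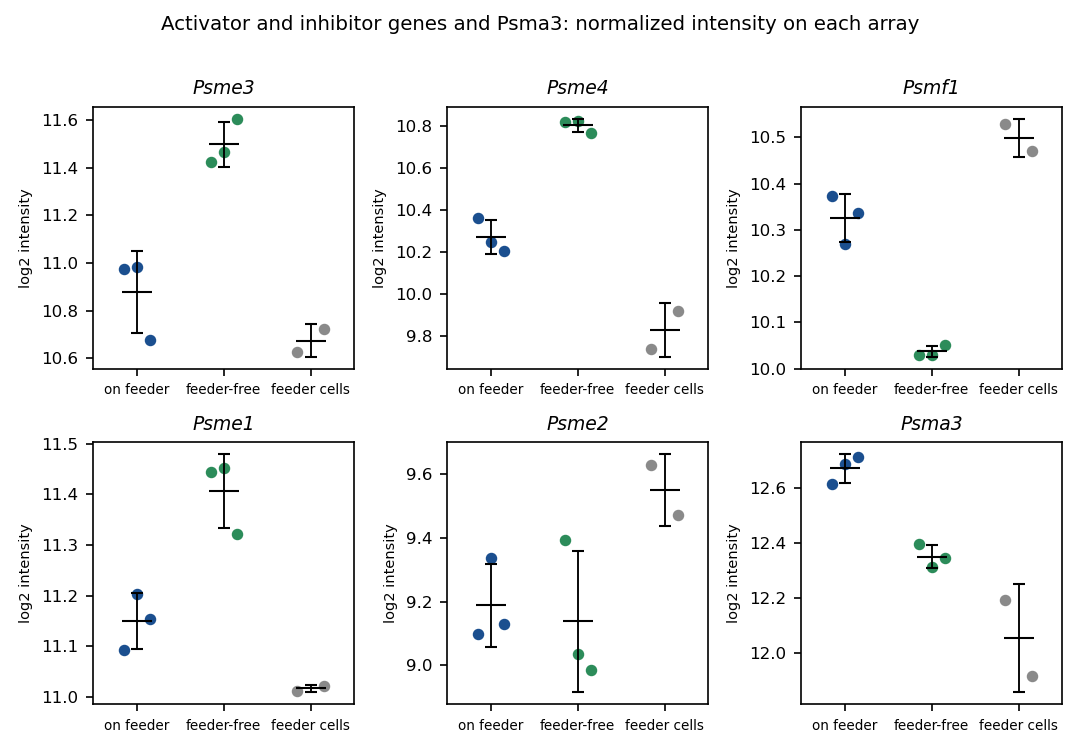
Normalized log2 intensity of the activator genes Psme1 to Psme4, the inhibitor gene Psmf1 and the alpha-ring gene Psma3, with 1 point per array and the mean ± SD as bars, on axes that differ between panels and do not start at 0. For Psme3 and Psme4 the on-feeder arrays lie between the feeder cells and the feeder-free iPSC or near the feeder cells, and for Psmf1 the on-feeder arrays lie between a lower feeder-free and a higher feeder level.

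The promoters of the 2 activators that were lower on feeder cells are shown in the same way, on the plus strand at chr11:101316063-101316222 for Psme3 and chr11:30771625-30771784 for Psme4. Capitals mark ATTGG, which is CCAAT on the other strand, in Psme3, and TGACNNNGC read on the other strand in Psme4.
Psme3: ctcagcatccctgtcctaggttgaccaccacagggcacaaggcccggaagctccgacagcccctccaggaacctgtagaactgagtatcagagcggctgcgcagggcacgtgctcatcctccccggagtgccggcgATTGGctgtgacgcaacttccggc
Psme4: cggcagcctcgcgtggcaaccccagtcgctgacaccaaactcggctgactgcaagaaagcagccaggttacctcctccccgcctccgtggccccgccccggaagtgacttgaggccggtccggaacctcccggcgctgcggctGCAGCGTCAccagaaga
The match begins 14 bases before the start in Psme3 and 7 before it in Psme4, so these 2 genes, both lower on feeder cells, share neither searched motif within the window.

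The in silico mixture asks which of these differences exceed what feeder RNA mixed into the sample would give. It was rebuilt from the feeder-free arrays and the mean of the feeder arrays, so it is not independent of them. All mixtures hold the same feeder mean, so errors and intervals against them leave out the spread between feeder arrays. Against it, 4 of 40 proteasome genes passed the test (10%, against a background of 10.8% of all genes): Psma3 was higher (1 gene, against 5.61% of all genes higher), and Psmc1, Psme3 and Psme4 were lower (3 genes, against 5.23% lower). Psmc1 passed the detection filter only through the feeder arrays, whose signal is part of the mixture. Its call is counted but gives no support of its own. No proteasome gene passed with a fitted change of at least 2-fold (0 of 40 by limma), against 0.915% of all genes. At an unadjusted p under 0.05, whatever the fold, there were 9 of 40, against 28.8% of all genes. The median over the 40 genes was 0.05, against -0.02 over all genes.

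Psmb6 did not differ from the mixture beyond its error. It read 9.85, 9.999 and 10.09 in the mixtures, the on-feeder arrays overlapped them, and the difference was 0.09 (SE 0.10, adjusted p = 0.571) with a 95% interval of -0.13 to 0.32. That value follows the share of feeder signal assumed: it was 0.64 (adjusted p = 0.00207) with 4% feeder signal in the mixture and reversed to -0.61 (adjusted p = 0.00482) with 16%. The other catalytic genes lay at 0.09 for Psmb5 and 0.17 for Psmb7, and 0 of the 7 beta-ring genes passed, with 0 at an unadjusted p under 0.05.

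Psme3 and Psme4 were lower than the mixture as well. Psme3 lay at -0.56 (SE 0.11, adjusted p = 0.0114), with 11.38, 11.40 and 11.53 in the mixtures. Psme4 lay at -0.46 (SE 0.09, adjusted p = 0.0136), with 10.77, 10.76 and 10.69 in the mixtures, and its second probe gave -0.51 (adjusted p = 0.037). Psme3 and Psme4 both lost the call with median scaling, at adjusted p = 0.374 and 0.666, and each lost it without 1 mixture: Psme3 without mixture 3 (-0.51, adjusted p = 0.057) and Psme4 without mixture 2 (-0.45, adjusted p = 0.0642). Psma3 lay at 0.33 (SE 0.09, adjusted p = 0.0484), and its call was lost under 9 of 15 alternatives, among them the removal of any single on-feeder array or mixture. Psmf1 lay at 0.25 (adjusted p = 0.103) and was not called against the mixture.

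Psmc1, an ATPase whose tail helps open the gate of the core, was the remaining call. It was not well above background on any of the 3 on-feeder arrays, but was detected on 1 of the 3 feeder-free arrays and on both feeder arrays. The deposited Psmc1 signals were 69.3, 60 and 63.9 on the on-feeder arrays, against 83.8, 86.7 and 103 in the authors' mixtures. All on-feeder arrays lay under all mixtures, at a signal at least 1.35-fold lower (fitted adjusted p = 0.0102), and the fitted difference of -0.87 (SE 0.17) moved between -1.25 and -0.38 over the alternatives. Psmc1 was tested only because of its feeder signal, which every mixture contains. The filter thus favoured this order, which is given only as description. Its call was lost with median scaling (adjusted p = 0.077). Against feeder-free iPSC, Psmc1 on feeder cells lay at -0.29 (adjusted p = 0.272), its arrays overlapped, and with signals at background no further order of these groups is given.

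The contrast of feeder-free iPSC with feeder cells describes which proteasome genes differ between the cell types. Of the 40 genes, 32 passed the test (80%, against a background of 81.9% of all genes), 18 higher in feeder-free iPSC (40.8% of all genes were higher) and 14 lower (41.1% of all genes were lower). Of the 40 genes 8 passed with a fitted change of at least 2-fold, 6 higher and 2 lower, against 42% of all genes. The median difference was 0.18, against -0.01 over all genes. By role, 3 of 7 alpha genes were higher and 2 lower, 3 of 7 beta genes were higher and 3 lower, and 2 of 5 ATPases were higher and 1 lower. Of the 11 non-ATPases 6 were higher and 4 lower, of the 5 assembly chaperones 1 was higher and 2 lower, and of the 5 activators and inhibitor 3 were higher and 2 lower. Genes of every role thus moved in both directions, although the lower ATPase is Psmc1, detected on 1 of 3 feeder-free arrays. Psma5, Psma8, Psmd6, Psmd11 and Psmd12, all counted as higher, were detected on 0 of 2 feeder arrays. Psmc1 passed the filter only through the feeder arrays and the others only through iPSC arrays. The filter thus favoured the direction of these calls, which are counted only as description. Psma8, Psmd12 and Psmc1 are also among the 2-fold calls. With median scaling in place of quantile normalization the median of all genes shifted to 0.28, and the proteasome calls were 14 higher and 6 lower. The calls lost in that setting were those of Psma1, Psma2, Psma3, Psmb2, Psmc5, Psmd3, Psmd4, Psmd9, Psmd13, Psme1, Psme2 and Psmf1. Leaving out 1 array, feeder-free or feeder, also ended the calls of Psma1, Psma3, Psmc2, Psmc5, Psmd4, Psmd13 and Psme2 in at least 1 case, with adjusted p values of up to 0.424 for Psme2 over the alternatives, so these small differences rest on few arrays.

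**Figure D4:**
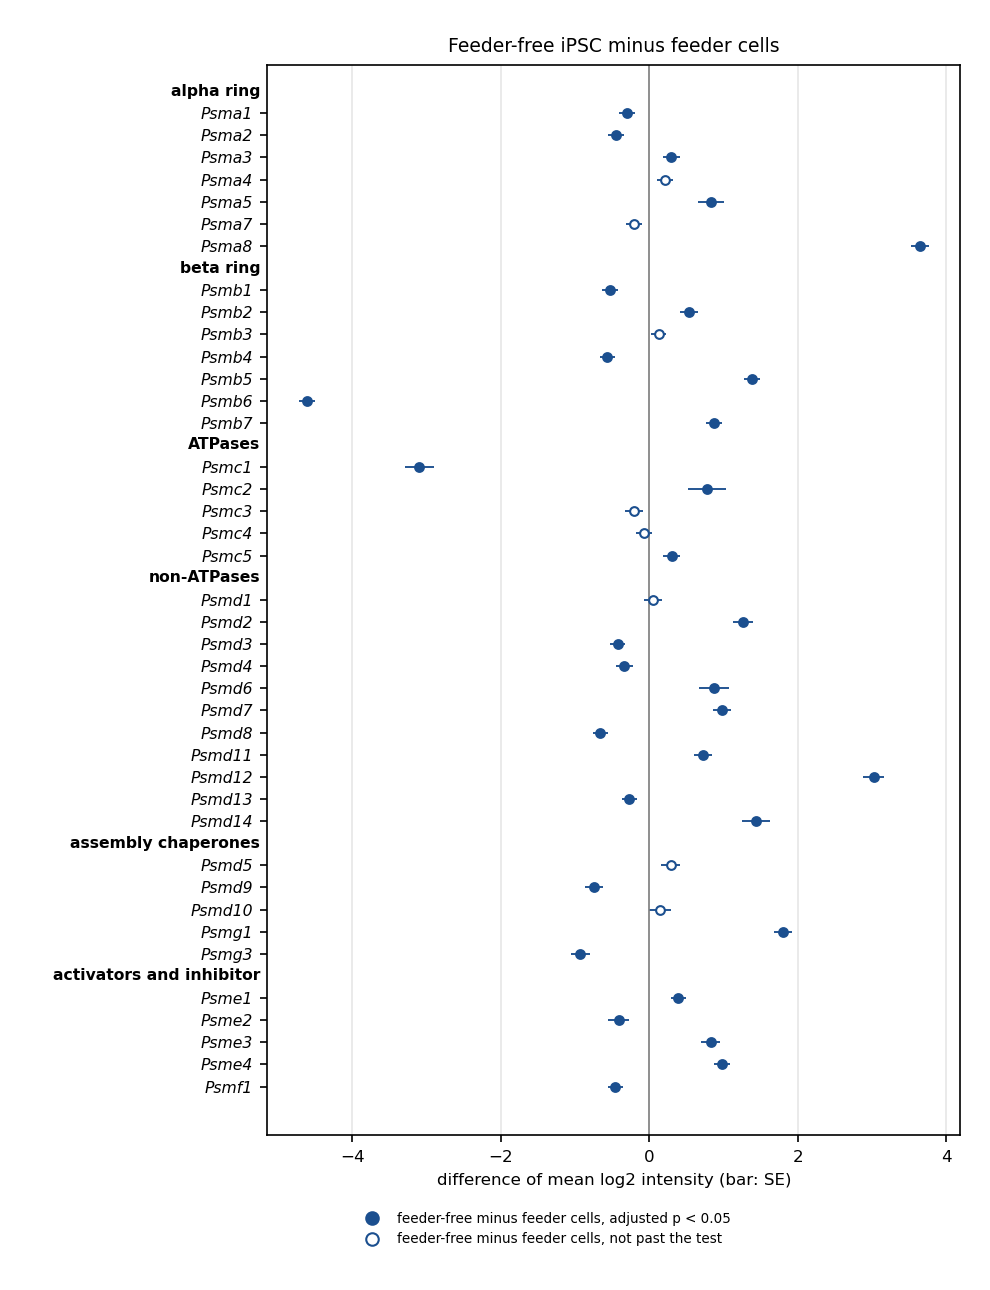
Difference of mean log2 intensity of each tested proteasome gene in feeder-free iPSC (3 arrays) minus feeder cells (2 arrays), by role. Bars are standard errors and filled circles passed an adjusted p of 0.05. Psmb6, detected on all arrays, lies furthest below 0, at -4.61. The fitted points of Psmc1 (-3.10), Psma8 (3.65), Psmd12 (3.02), Psma5, Psmd6 and Psmd11 are not exact sizes: these genes were not above background on most or all arrays of the dimmer group, so only bounds or no folds are given for them.

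In the core particle, Psmb6 was lower in feeder-free iPSC by 24.4-fold against feeder cells (-4.61, SE 0.11, adjusted p = 3.1e-12). Its ring neighbours Psmb5 (1.38, SE 0.11, adjusted p = 9.83e-08) and Psmb7 (0.87, SE 0.11, adjusted p = 9.15e-06) were higher in feeder-free iPSC, Psmb5 with 9.99 and 9.92 in feeder cells and Psmb7 with 12.04 and 12.13. The signals of the 3 catalytic genes therefore did not move together between the cell types. All 3 probes of Psmb7 were higher, at 0.77 to 1.08, while Psmb5 and Psmb6 rested on 1 probe each. In feeder-free iPSC Psmb6 had a mean of 8.42, whereas the means of Psmb1, Psmb2, Psmb3 and Psmb4 lay between 12.3 and 13.7. Whether the Psmb6 probe reads its RNA alike in both cell types was not tested, so the fold is one of probe signal. Of the other beta genes, Psmb2 was higher (0.54), Psmb1 (-0.53) and Psmb4 (-0.57) were lower, and Psmb3 lay at 0.13.

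Psma8, an alpha subunit that replaces Psma7 in the proteasomes of testis germ cells, had the largest fitted rise. It read 8.14, 8.07 and 7.88 in feeder-free iPSC, against 4.39 and 4.38 in feeder cells, where neither array was well above background, so it was at least 5.91-fold higher in feeder-free iPSC (adjusted p = 3.51e-11). Its second probe, also not well above background in feeder cells, was at least 4.24-fold higher (adjusted p = 4.91e-10). In iPSC on feeder cells it read 8.04, 7.83 and 8.07 and overlapped the feeder-free arrays (-0.05, 95% interval -0.28 to 0.18). Psma7 itself lay at -0.20 (adjusted p = 0.105), and Psma5, not well above background in feeder cells, was at least 1.24-fold higher in feeder-free iPSC (adjusted p = 0.000703). Psma3 was higher (0.30), Psma1 (-0.31) and Psma2 (-0.45) were lower, and Psma4 lay at 0.21 (adjusted p = 0.0816).

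**Figure D5:**
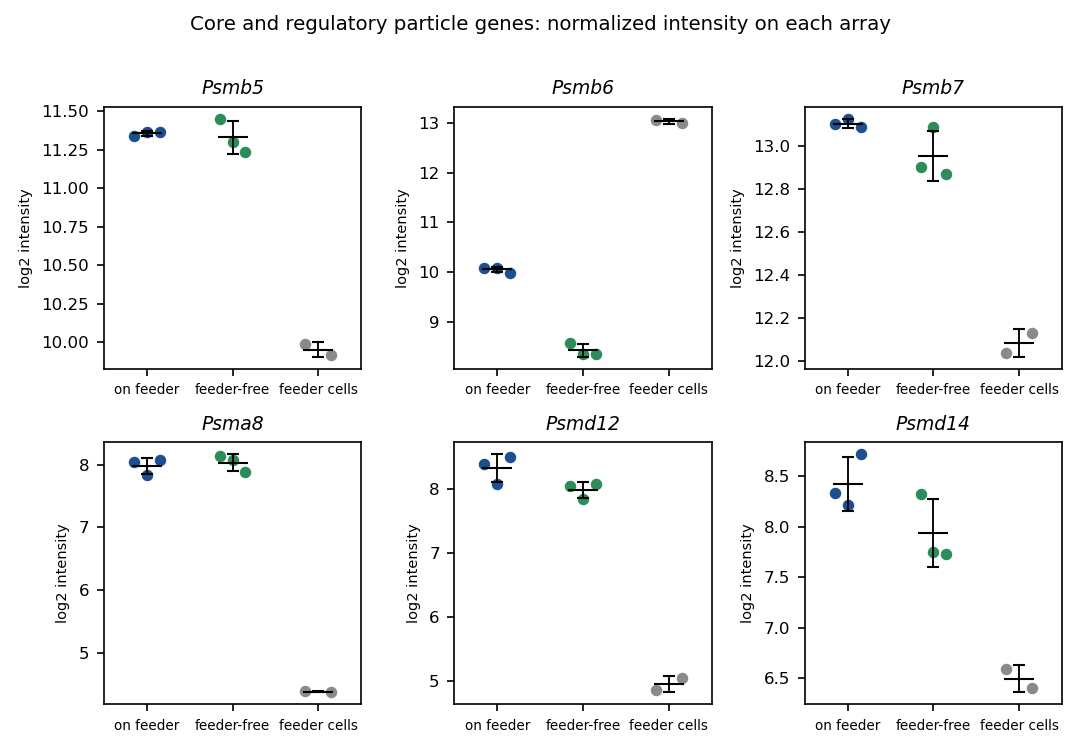
Normalized log2 intensity of the catalytic genes Psmb5, Psmb6 and Psmb7 (top) and of Psma8, Psmd12 and Psmd14 (bottom), with 1 point per array and the mean ± SD as bars, on axes that differ between panels and do not start at 0. Psmb6 is highest in feeder cells and lowest in feeder-free iPSC, while the other 5 genes are lowest in feeder cells.

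In the regulatory particle, Psmc1 was lower in feeder-free iPSC. It read 4.55, 4.67 and 5.38 there, against 7.98 and 7.96 in feeder cells. Only 1 of the 3 feeder-free arrays was above background, so the feeder-free signal lay at least 7.27-fold lower (fitted adjusted p = 1.41e-08). The means of Psmc3, Psmc4 and Psmc5 in feeder-free iPSC lay between 11.9 and 12.4. How strongly the only Psmc1 probe responds was not tested. Among the ATPases Psmc5 was higher (0.30), Psmc2 was higher (0.77, detected on 1 of 2 feeder arrays, and not called without feeder array 2, at 0.47), and Psmc3 (-0.21) and Psmc4 (-0.07) did not pass. The lid subunit Psmd12 read 8.05, 7.84 and 8.07 in feeder-free iPSC, against 4.87 and 5.05 in feeder cells, where it was not well above background, and was at least 5.73-fold higher (adjusted p = 7.16e-10). Psmd14 was 2.72-fold higher (1.44, SE 0.19, adjusted p = 1.54e-05), with 6.59 and 6.40 in feeder cells. Psmd2, a base scaffold subunit, was 2.39-fold higher (1.26, SE 0.13), and Psmd8, a lid subunit, was 1.58-fold lower (-0.66, SE 0.10, adjusted p = 6.26e-05).

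The other non-ATPases differed less or less surely. Psmd6 and Psmd11 passed the test (adjusted p = 0.00143 and 0.000107) but were not well above background in feeder cells, and their level in feeder-free iPSC lay under the floor there, so no fold is given. Psmd7 was higher through its brightest probe (0.98), at 0.31 through another and at 0.04 (adjusted p = 0.775) through the remaining probe. Psmd13 was lower (-0.27) through its brightest probe and higher (0.42, adjusted p = 0.00536) through another, so it has no settled direction. The second probe of Psmc4 was not well above background in feeder cells and was at least 1.07-fold higher in feeder-free iPSC (adjusted p = 5.89e-06), beside -0.07 through its brightest probe. Psmd3 (-0.43) and Psmd4, a ubiquitin receptor (-0.34), were lower, and Psmd1 lay at 0.05.

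Of the assembly chaperones, Psmg1, which starts the alpha ring, read 11.35, 11.14 and 11.34 in feeder-free iPSC, against 9.47 and 9.49 in feeder cells, and was 3.48-fold higher (1.80, SE 0.12, adjusted p = 1.8e-08). Psmg3, which acts on the same ring, moved the other way, with 9.14, 9.39 and 9.15 in feeder-free iPSC against 10.16 and 10.16 in feeder cells (-0.93, SE 0.13, adjusted p = 2.17e-05). Psmd9, a chaperone of the ATPase base, was lower at -0.75 (SE 0.12, adjusted p = 9.92e-05), but its second probe lay at -0.25 (adjusted p = 0.137) and its call was lost with median scaling (-0.13). Psmd5 (0.29) and Psmd10 (0.14), the other base chaperones tested, did not pass.

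Of the 4 activators, Psme1, Psme3 and Psme4 were higher in feeder-free iPSC, and Psme2 and the inhibitor Psmf1 were lower. Psme3 (0.82, SE 0.12, adjusted p = 4.63e-05), with 10.63 and 10.72 in feeder cells, and Psme4 (0.98, SE 0.11, adjusted p = 2.98e-06), with 9.74 and 9.92, were higher in feeder-free iPSC, and Psmf1 was lower (-0.46, SE 0.10, adjusted p = 0.000947), with 10.53 and 10.47. Psme1 lay at 0.39 and its partner Psme2 at -0.41. This contrast shares the feeder-free arrays with the comparison on feeder cells, so its values are set beside those only as a description.

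Genes that work with the proteasome were described through a list of 34, of which 20 were tested. With feeder cells against without them, Ecpas, an adaptor that binds the proteasome, was higher (0.51, adjusted p = 0.0329) and Ufd1, a partner of the unfoldase Vcp, was lower (-0.42, adjusted p = 0.0131), and the other 18 did not pass (2 of 20 called, against 18.5% of all genes). The median of the 20 was 0.07. The regulators Nfe2l1 and Nfe2l2 lay at -0.26 (adjusted p = 0.0926) and 0.17 (adjusted p = 0.229). Against the mixture 1 gene was higher, Ecpas at 0.53, and 2 were lower, Ufd1 at -0.39 and Keap1, the inhibitor of Nfe2l2, at -0.41 (3 of 20 called, against 10.8% of all genes). In feeder-free iPSC against feeder cells 8 were higher and 7 lower (75% called, against 81.9% of all genes). The higher ones included Nfe2l1 (0.55), Nfe2l2 (0.74) and the proteasome-bound deubiquitinases Usp14 (1.28) and Uchl5 (1.24). The lower ones included Keap1 (-2.66), the core assembly factor Pomp (-0.89) and Vcp (-0.78).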

How the data were processed

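Bead intensity was deposited by the authors as a non-normalized table with 1 signal per probe and array, per the file headers. A deposited detection score stands beside each array, headed as a p-value, and was read as 1 minus the detection p because it rose with the signal. The deposited feeder-free columns are pooled (91 or 92% feeder-free signal plus feeder signal), so each feeder-free array was solved for from the authors' mixture columns, which hold 92% of 1 feeder-free array and 8% of the mean feeder signal. These arrays gave back the pooled columns within 0.0471 signal units. The submitters' processing notes name limma, and its version was not given in the sources used here. The aligner of probes to genes and the genome build were not given in the sources used here.

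Background was corrected by normexp from detection p-values with an offset of 16 (limma 3.58.1, R 4.3.3), and log2 values were then quantile normalized over 8 arrays. A probe was kept if its score was over 0.95 on all arrays of any group (18144 of 46627), and the brightest probe stood for each of 10058 genes. Symbols came from the platform annotation: 29972 probes had 1 symbol, 10 had several and 16645 were not listed. Groups were compared with lmFit and eBayes in 1 fit (5 residual and 7.03 prior degrees of freedom), two-sided, with Benjamini-Hochberg adjustment over all genes and a threshold of 0.05. Mixtures were rebuilt from corrected signals, then normalized and fitted with the on-feeder arrays alone (4 residual degrees of freedom). The script was tested on simulated data. Depth on arrays is signal over background: the median signal of detected probes exceeded that of undetected ones by 2.56 to 3.2 times, and the number of arrays limits precision. Bounds written "at least" set the brighter mean against the lowest signal among detected probes, or the dim probe's own if higher, per array.

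All proteasome genes are named, with values in full for those called on feeder cells against feeder-free growth or the mixture, the 5 largest changes each way between feeder-free iPSC and feeder cells, and the catalytic subunits. The members and lists were chosen with earlier results of these data known. Same-numbered on-feeder and feeder-free arrays deviated together with correlations of 0.03, 0.16 and -0.20, so numbers were not taken as pairs. Alternatives were another normalization, background correction, offset, detection filter, probe rule, arrays in the fit, replicate block, each array left out, and 4% or 16% feeder signal in the mixture. A further table of normalized values by the authors was not used, since most of its columns did not match the probes. Sequences are RefSeq's. Tables and figures were made in Python 3.11.15 (pandas 2.3.3; numpy 2.4.6; matplotlib 3.10.9).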

Additional observations from a re-analysis of the deposited data

How the results depend on the processing

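Psmb6, Psme3 and Psme4 on feeder cells against feeder-free growth kept their direction under all 14 alternatives. All 32 proteasome genes called between feeder-free iPSC and feeder cells did so under theirs, each through its brightest probe. The detection filter, probe rule and replicate block left the fitted values of Psmb6, Psme3 and Psme4 unchanged, so these settings could not show a reversal. Psmd13, at -0.27 through its brightest probe, lay at 0.42 through its other probe. The number of proteasome genes called on feeder cells against feeder-free growth, 5 as reported, was 1 with median scaling (4 at an unadjusted p under 0.05), 9 without background correction (6 higher, 3 lower), 8 with offset 50 and 3 with the replicate block. It ranged from 3 to 6 when 1 array was left out, with 3 without on-feeder array 3, feeder-free array 2 or feeder-free array 3. All genes called in that contrast, 1860 as reported (54.2% of them higher), were 399 with median scaling (77.4% higher), and 1156 to 2202 with 1 array left out (1219 without on-feeder array 1, 1170 without on-feeder array 3, 1172 without feeder-free array 2, 1156 without feeder-free array 3).

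Against the mixture, 4 proteasome genes as reported became 0 with median scaling by limma (3 at an unadjusted p under 0.05), 8 without background correction and 8 with 16% feeder signal (4 higher, 4 lower in both), and 2 to 5 with 1 array left out, 2 without mixture 2 or mixture 3. All genes, 1090 as reported (51.7% higher), were 110 with median scaling (72.7% higher), 1734 with 16% feeder signal and 409 to 1537 with 1 array left out (568 without on-feeder array 1, 549 without on-feeder array 3, 409 without mixture 2, 457 without mixture 3). Psmb6 reversed from 0.09 to -0.61 with 16% feeder signal. Between feeder-free iPSC and feeder cells, 32 proteasome genes became 20 with median scaling (all genes 64% higher, against 49.8%) and 26 to 31 with 1 array left out, their median of 0.18 was 0.29 over all kept probes, and all genes called, 8233, became 14531 probes in that setting. With the offset or background changed, the fitted differences of the dimmest genes shrank, Psma8 to 2.25, Psmd12 to 1.74 and Psmc1 to -1.80. The replicate block moved no other count of proteasome calls by over 1.5 times. The cause of these changes was not tested. Low signal limits what is said of Psma5, Psma8, Psmc1, Psmc2, Psmd6, Psmd11 and Psmd12, which lie near background in at least 1 group. Whether little RNA or a weakly responding probe underlies a low signal was not tested, and Psmc1 and Psmd12 have 1 probe each.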
